A study of Mus with 6 samples.

Results

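The genes described here are purinergic receptors and ectonucleotidases, measured in the hippocampus of mice loaded with forced swim stress (FSS) and of control mice. The list names 10 genes, the P2Y receptors P2ry12, P2ry13, P2ry6 and P2ry1, the P2X channels P2rx4 and P2rx7, the enzymes Entpd1 and Nt5e, and the adenosine receptors Adora1 and Adora2a. A gene was taken from the array rows whose annotation gives exactly 1 gene symbol, and of several such rows the brightest on average was to be kept. This gave 8 genes, each with 1 row, so that the mean level had no choice to make. No row was named for Adora1 or Adora2a, which were not analysed here. In all, 21789 rows carried 1 symbol.

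FSS mice (n = 3) swam in a cylinder of water for 11 min on each of 5 days, and control mice (n = 3) did not swim. By the study's methods the mice of both groups were male, and a tail suspension test came between the last swim and the dissection. All were C57BL/6JJmsSlc mice with an age of 10 to 11 weeks in the labels, and none carried a transgene by the labels. RNA of the hippocampus of 1 mouse was measured on each GeneChip Mouse Gene ST array, a 1-colour array whose probes are summarised into 1 value per transcript. The values are log2 levels made by robust multi-array averaging (RMA), so that a difference of 1 is a doubling. An array level depends on the probes as well as on the RNA, and the levels of different genes are therefore not set against each other. The tissue was dissected as a whole, and in such bulk samples a change in the number of cells of a type and a change of RNA per cell cannot be told apart.

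Cells release ATP and other nucleotides through channels and vesicles, and these act outside the cell as signals. P2X receptors are cation channels opened by ATP, whereas P2Y receptors are G protein-coupled receptors for ADP, ATP or uridine nucleotides. On the cell surface, ENTPD1 (CD39) degrades ATP and ADP to AMP, and NT5E (CD73) converts AMP to adenosine, which acts on adenosine receptors. In the brain, microglia, the resident macrophages, use P2Y12 to direct their processes towards sites of nucleotide release, and P2Y12 is commonly used as a marker of resting microglia.

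The levels of FSS mice were compared with those of control mice by limma over all 21789 rows. P2ry13, P2rx4 and Entpd1, 3 of the 8 genes, had a higher level in FSS mice at an unadjusted p under 0.05, against 2.49% of all rows, and Nt5e (1 of 8) had a lower level, against 2.66% of all rows. In either direction 4 of 8 passed, against 5.14% of all rows. The changes were small, from 11.2% lower for Nt5e to 24.4% higher for P2ry13. P2ry12, P2ry6, P2ry1 and P2rx7 did not pass. The list was drawn up with results of these arrays known, so that its share above that of all rows is a description and not independent evidence. None of the 8 genes passed an adjusted p of 0.05 over all rows (0.943 or higher for each), nor did any other row, the smallest adjusted p being 0.872. None of the 8 reached the threshold of the study's methods, a log2 fold change over 0.5 in size with an unadjusted p under 0.05, which 0.0688% of all rows did. The median log2 fold change was 0.089 over the 8 genes and 0.0049 over all rows.

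**Figure D1:**
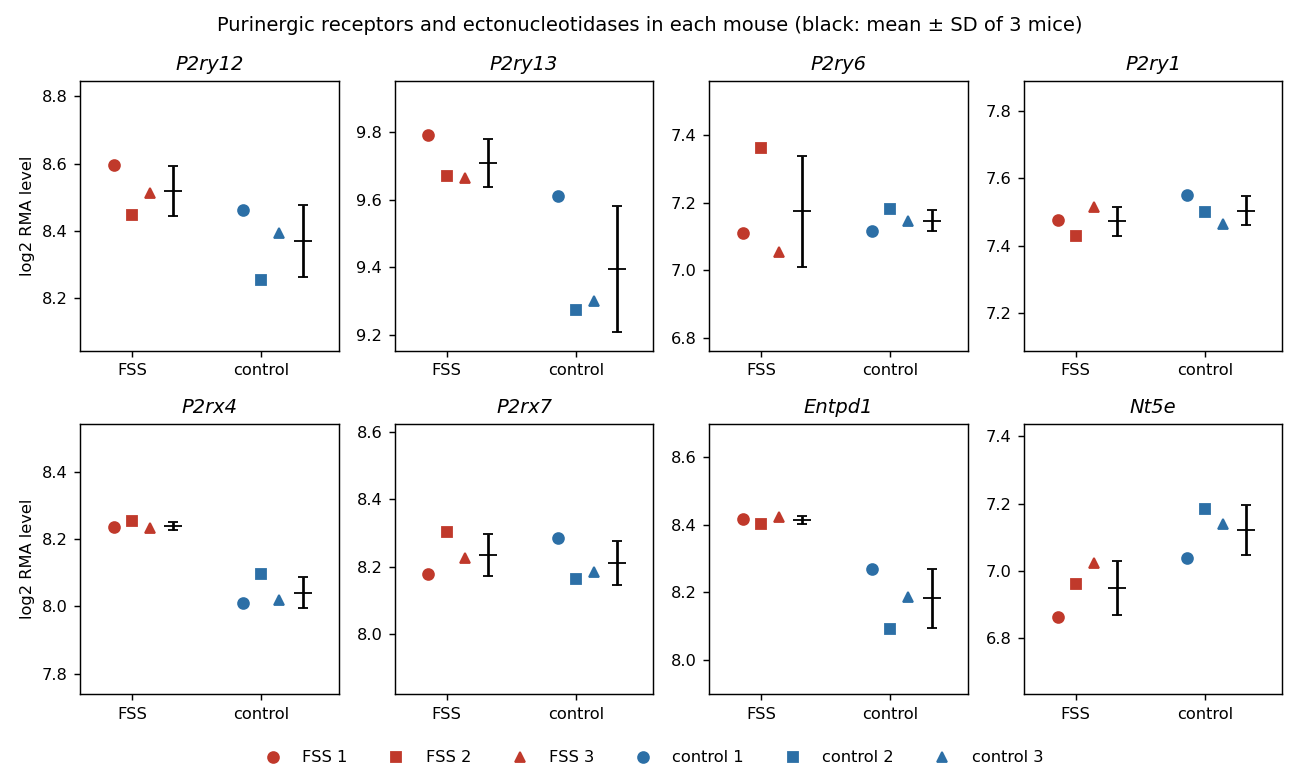
Log2 RMA level (y axis, 0.8 from bottom to top in every panel) of the 8 measured genes in FSS mice (left, red) and control mice (right, blue), with 1 symbol per mouse and the mean ± SD of 3 mice in black. For P2ry13, P2rx4 and Entpd1 all red symbols lie above all blue symbols, and for Nt5e all lie below.

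P2ry13 encodes a receptor for ADP. Its log2 level was 9.79, 9.67 and 9.67 in FSS mice 1, 2 and 3, and 9.61, 9.27 and 9.30 in control mice 1, 2 and 3. The FSS mice lay close together, whereas control mouse 1 stood near them and 0.34 above the lowest control mouse. The means were 9.71 ± 0.071 in FSS mice and 9.39 ± 0.19 in control mice (SD, n = 3 each), which gave the largest log2 fold change of the 8 genes, 0.32 (standard error 0.096, 95% interval 0.087 to 0.54, limma unadjusted p = 0.014). P2ry13 did not pass by the test of the methods, which uses the variance of each gene alone. The groups did not overlap, with a gap of 0.056 between the lowest FSS mouse and the highest control mouse. By the exact two-sided permutation test p was 0.1, the smallest that 3 mice against 3 allow. Groups that do not overlap were found in 6.02% of all rows with FSS higher and in 4.25% with FSS lower.

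P2ry12, which encodes the ADP receptor of microglia and platelets, differed less. FSS mice 1, 2 and 3 had log2 levels of 8.60, 8.45 and 8.51, and control mice 1, 2 and 3 had 8.46, 8.25 and 8.39. The lowest FSS mouse and the highest control mouse overlapped by 0.013, and control mouse 2 was the lowest of all. The log2 fold change was 0.15 (standard error 0.069, 95% interval -0.013 to 0.31, limma unadjusted p = 0.066), and the exact two-sided permutation test gave p = 0.2. The log2 fold change was 0.20 and passed an unadjusted p of 0.05 when control mouse 1 was left out. It did not pass when any other mouse was, and was lowest, 0.092, without control mouse 2. It passed as well with a variance trend over the level and without dim rows.

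In RefSeq order, P2ry13 and P2ry12 are next to each other on chromosome 3, both within the extent of Med12l, a gene of the Mediator complex. Med12l had a log2 fold change of -0.032 (limma unadjusted p = 0.447), and P2ry14, the receptor for UDP-glucose in the same cluster, one of 0.043 (limma unadjusted p = 0.625). Neither neighbour passed. Within each mouse the difference between P2ry13 and P2ry12, taken from its mean over the 6 mice, was 0.088, 0.12 and 0.044 in FSS mice 1, 2 and 3, and 0.041, -0.087 and -0.20 in control mice 1, 2 and 3. The change of P2ry13 thus exceeded that of P2ry12 by 0.17 on the log2 scale, with FSS mouse 3 and control mouse 1 nearly level (exact two-sided permutation p = 0.1, the smallest possible, for this 1 of 3 pairs compared, all of them chosen after the values were seen). All 3 pairs had this smallest p, so Benjamini-Hochberg adjustment over them left it at 0.1. That does not correct for the choice of the pairs.

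P2ry6, which encodes a receptor for UDP that takes part in microglial phagocytosis, had log2 levels of 7.11, 7.36 and 7.05 in FSS mice, against 7.12, 7.18 and 7.14 in control mice. FSS mouse 2 was the highest of all and FSS mouse 3 the lowest, so that the control mice lay inside the range of the FSS mice. The log2 fold change of 0.028 (95% interval -0.17 to 0.23, limma unadjusted p = 0.749) turned to -0.066 without FSS mouse 2. P2ry1, a receptor for ADP that couples to the release of calcium in astrocytes and platelets, had log2 levels of 7.48, 7.43 and 7.51 in FSS mice, against 7.55, 7.50 and 7.47 in control mice. It varied least over the mice, by 0.12 from the lowest to the highest, and its log2 fold change was -0.032 (95% interval -0.14 to 0.078, limma unadjusted p = 0.515). For both genes the interval ended below a size of 0.5, the threshold of the methods.

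P2rx4 encodes an ATP-gated channel of microglia and neurons. Its log2 level was 8.23, 8.25 and 8.23 in FSS mice, and 8.01, 8.10 and 8.02 in control mice. The FSS mice were within 0.022 of each other, and the gap to the highest control mouse was 0.14, the widest of the 8 genes. The means were 8.24 ± 0.012 in FSS mice and 8.04 ± 0.047 in control mice (SD, n = 3 each), a log2 fold change of 0.20 (standard error 0.043, 95% interval 0.095 to 0.30, limma unadjusted p = 0.00274, exact two-sided permutation p = 0.1). This was the smallest unadjusted p of the 8 genes, and the standard error was at percentile 10.9 of all rows. P2rx4 passed without each mouse in turn, with log2 fold changes of 0.18 to 0.23.

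P2rx7, the next gene to P2rx4 on chromosome 5, encodes a channel that opens at high ATP concentrations and is known for the activation of the inflammasome. Its log2 level was 8.18, 8.30 and 8.23 in FSS mice, against 8.28, 8.16 and 8.18 in control mice, and the groups overlapped over most of their range. The log2 fold change was 0.024 (95% interval -0.11 to 0.15, limma unadjusted p = 0.671) and turned to -0.0091 without FSS mouse 2. Within each mouse, the difference between P2rx4 and P2rx7, taken from its mean over the 6 mice, was 0.14, 0.034 and 0.088 in FSS mice and -0.19, 0.014 and -0.082 in control mice. The groups did not overlap, and the change of P2rx4 exceeded that of P2rx7 by 0.17 on the log2 scale (exact two-sided permutation p = 0.1, the smallest possible). The choice of this pair was likewise made after the values were seen.

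Camkk2, which overlaps P2rx4 in RefSeq, and Anapc5, the gene on its other side, had log2 fold changes of 0.014 and -0.027 (limma unadjusted p = 0.786 and 0.541). Neither passed. The 5 genes whose levels followed P2rx4 most closely over the 6 arrays, among 9853 genes at or above the median level, were E130311K13Rik (Pearson's r = 0.979), Hddc3, 1500011B03Rik, BC052040 and Fdps (r = 0.967), the enzyme farnesyl diphosphate synthase. These are descriptions over 6 points that share the arrays, and 15 genes had an r above 0.95.

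The pair of surface enzymes went in opposite directions. Entpd1, which encodes CD39, had log2 levels of 8.42, 8.40 and 8.42 in FSS mice, against 8.27, 8.09 and 8.19 in control mice. The FSS mice were within 0.022 of each other and lay 0.13 above the highest control mouse. The means were 8.41 ± 0.011 in FSS mice and 8.18 ± 0.088 in control mice (SD, n = 3 each), 0.23 apart on the log2 scale (standard error 0.054, 95% interval 0.10 to 0.36, limma unadjusted p = 0.00389, exact two-sided permutation p = 0.1). It passed without each mouse in turn, from 0.19 without control mouse 2 to 0.28 without control mouse 1.

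Nt5e, which encodes CD73, had log2 levels of 6.86, 6.96 and 7.02 in FSS mice, and 7.04, 7.18 and 7.14 in control mice. FSS mouse 3 and control mouse 1 differed by 0.016 only, although the groups did not overlap. The means were 6.95 ± 0.080 in FSS mice and 7.12 ± 0.074 in control mice (SD, n = 3 each), a log2 fold change of -0.17 (standard error 0.061, 95% interval -0.32 to -0.025, limma unadjusted p = 0.0277, exact two-sided permutation p = 0.1). Nt5e lay below the median level of all rows, at percentile 40.1. It did not pass without FSS mouse 1 (-0.13), FSS mouse 2 (-0.18), control mouse 2 (-0.14) or control mouse 3 (-0.16), nor by the test of the methods. Within each mouse, the difference between Entpd1 and Nt5e, taken from its mean over the 6 mice, was 0.29, 0.18 and 0.14 in FSS mice and -0.033, -0.35 and -0.22 in control mice. All FSS mice were above all control mice, with 0.40 between the group means on the log2 scale (exact two-sided permutation p = 0.1). Each gene alone separated the groups, in opposite directions, so their difference had to separate them and the permutation test on it adds nothing. This pair too was chosen after the values were seen.

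**Figure D2:**
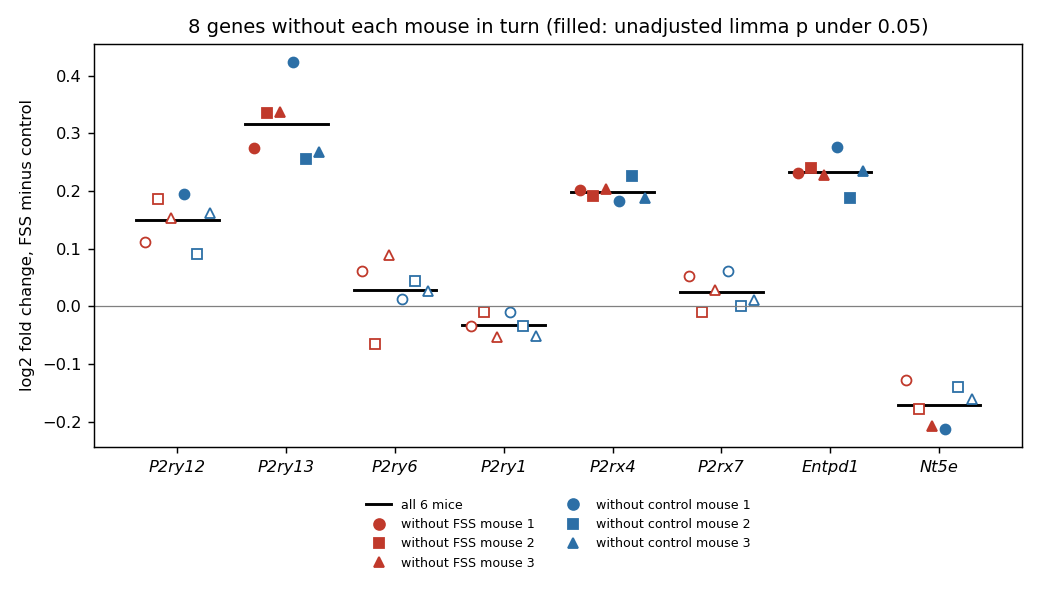
Log2 fold change (FSS minus control, y axis) of the 8 genes (x axis) with all 6 mice (black line) and without each mouse in turn (symbols, red for an FSS mouse left out and blue for a control mouse), filled at an unadjusted limma p under 0.05. P2ry13, P2rx4 and Entpd1 are filled in all 6 omissions and Nt5e in 2 of 6.

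The mice within a group deviated together for some of the genes and apart for others. Over the 6 arrays, which share the group difference, P2ry13 and Entpd1 had Pearson's r = 0.935 and P2ry13 and P2ry12 had r = 0.898, and Nt5e had r = -0.953 with P2ry13. With the group means taken out, these were 0.825, 0.784 and -0.867. P2rx4 and Entpd1, with r = 0.779 over all 6 arrays, had r = -0.921 with the group means taken out, so that within the groups the mouse with more Entpd1 had less P2rx4. These values are descriptions over 6 mice. Control mouse 2 had the lowest level of all mice for 4 of the 8 genes, P2ry12, P2ry13, P2rx7 and Entpd1, and the highest of all for Nt5e.

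Microglial markers that are not purinergic receptors were counted beside the 8 genes. Of 19 measured markers, 8 had a higher level in FSS mice at an unadjusted p under 0.05, against 2.49% of all rows. A lower level was found for 0, against 2.66% of all rows, and 11 did not pass. The median log2 fold change was 0.15, with 17 markers above 0 and 2 below. The higher ones included the lipid-sensing receptor Trem2 (0.20), the G protein-coupled receptor Gpr34 (0.25) and the lectin Siglech (0.16), each of which passed without any 1 mouse. The 11 that did not pass ranged from Selplg (-0.028) to Fcrls (0.33), with Csf1r at 0.022 and Tmem119 at 0.039. The mean of the markers, taken from its mean over the 6 mice, was 0.042 to 0.098 in FSS mice and -0.16 to 0.0060 in control mice, with the lowest value in control mouse 2. The dimmest marker, Gpr34, lay at percentile 21.6 of all rows, and 16 of the 19 lay at or above the median level. The number of higher markers was 4 without FSS mouse 1, 4 without control mouse 2 and 5 without control mouse 3.

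P2ry12 followed the marker mean with r = 0.972 over the 6 arrays, Entpd1 with r = 0.965 and P2ry13 with r = 0.937. P2rx4 (r = 0.619) and P2rx7 (r = 0.395) followed it less, P2ry6 (r = -0.124) and P2ry1 (r = -0.105) had little relation to it, and Nt5e ran against it (r = -0.912). The marker mean was itself higher in every FSS mouse, so subtracting it in each mouse lowered the log2 fold change of every row by the same amount. With it subtracted, the log2 fold change was 0.18 for P2ry13, 0.012 for P2ry12, 0.061 for P2rx4 and 0.095 for Entpd1, and it was -0.11 for P2ry6, -0.17 for P2ry1, -0.11 for P2rx7 and -0.31 for Nt5e. Only Entpd1 of the 8 then had every FSS mouse above every control mouse, with 0.021, 0.062 and 0.060 in FSS mice and -0.036, -0.047 and -0.060 in control mice, a pattern found in 0.188% of all rows. P2ry1 and Nt5e then had every FSS mouse below every control mouse, as did 34% of all rows. These shares were 6.02% and 4.25% before the subtraction and reflect the common shift. What part the number of microglia has in the levels of the 8 genes was not tested.

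**Figure D3:**
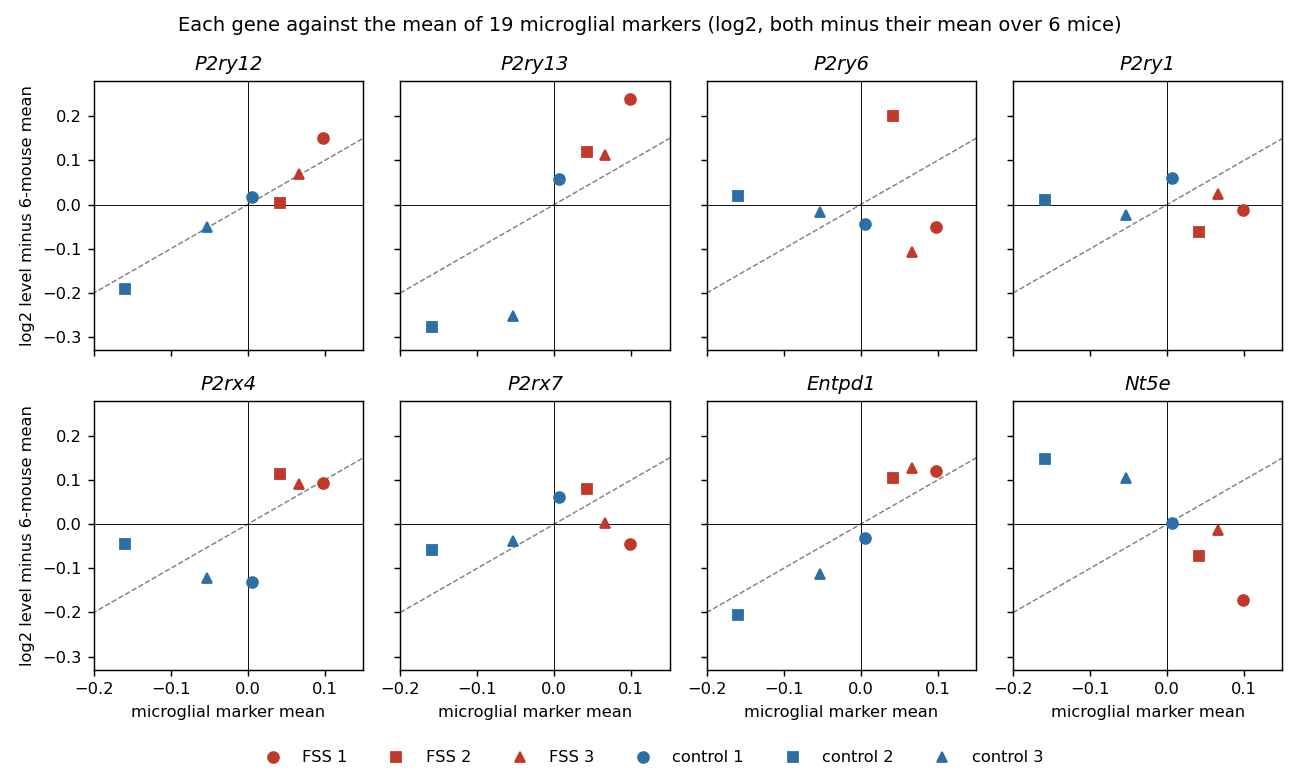
Log2 level of each of the 8 genes (y axis) against the mean log2 level of 19 microglial markers (x axis), both minus their mean over the 6 mice, with red symbols for FSS mice, blue symbols for control mice and a dashed line of equal change. P2ry12 lies along the dashed line, P2ry13 spreads wider than it, and Nt5e runs against it.

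Lists of markers of other cells were counted in the same way, and no test compares the lists. At an unadjusted p under 0.05, 2.49% of all rows were higher and 2.66% lower. Groups did not overlap in 6.02% of all rows with FSS higher and in 4.25% with FSS lower. Of 6 border macrophage genes, 1 was higher, F13a1 (log2 fold change 0.26), 0 were lower and the median was 0.0040. Of 5 platelet and red cell genes, 0 were higher or lower (median 0.030). Of 8 astrocytic genes, 2 were higher, Aqp4 (log2 fold change 0.33) and Gfap (0.16), and 2 lower, Gjb6 (-0.32) and Aldoc (-0.10), with a median of 0.021. Of 6 oligodendrocyte genes 0 passed (median -0.0046), though Mobp (-0.21) had every FSS mouse below every control mouse. The oligodendrocyte mean, taken from its mean over the 6 mice, was -0.25 in FSS mouse 2, against 0.095 and 0.091 in FSS mice 1 and 3. In control mice it was -0.026 to 0.062. Of 9 genes of endothelium and mural cells, 0 passed (median 0.052), and of 8 striatal genes 0 passed (median -0.028). Of 8 meningeal genes, 1 was higher, Lum (log2 fold change 0.29), and 7 lay above 0 (median 0.10). The groups did not overlap for 3 of the 8, all with FSS higher, against 6.02% of all rows. The meningeal mean, taken from its mean over the 6 mice, was 0.24 in FSS mouse 2, against -0.069 and 0.0015 in FSS mice 1 and 3. In control mice it was -0.11 to -0.015. Of 6 choroid plexus genes 1 was higher, Ttr (log2 fold change 0.95, median of the list 0.052). Of 9 markers of hippocampal neurons, all 9 lay at or above the median level of all rows, and 1 was higher (Prox1, log2 fold change 0.15). Their median was 0.061, 8 lay above 0 and 2 had groups that did not overlap, with FSS higher, against 6.02% of all rows. Of the other lists of this paragraph, 3 astrocytic genes had groups apart with FSS higher. So had 1 gene each of border macrophages, of endothelium and mural cells, and of choroid plexus. With FSS lower, 2 astrocytic genes and 1 oligodendrocyte gene had groups apart. The platelet and red cell list and the striatal list had 0.

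Of 49 other genes of the pathway, 46 were measured. At an unadjusted p under 0.05, 4 of the 46 were higher in FSS mice, against 2.49% of all rows. Lower were 3, against 2.66% of all rows, and 39 did not pass. These genes too were chosen with results of these arrays known, so that the shares are a description. The median log2 fold change of the 46 genes was 0.011. Among them, the receptors outside the list of 10 mostly did not pass. Of 5 other P2X channels, 0 passed, and the one with the largest change, P2rx5, had a log2 fold change of -0.060. Of 5 other P2Y receptors and relatives, 1 was higher, Gpr17, a receptor of oligodendrocyte precursors that is related to P2Y receptors. Its log2 level was 8.96, 8.62 and 8.74 in FSS mice, against 8.53, 8.33 and 8.59 in control mice. The groups did not overlap, and the difference was 0.29 on the log2 scale (standard error 0.10, limma unadjusted p = 0.0275). It did not pass without FSS mouse 1 (0.20), FSS mouse 3 (0.31) or control mouse 2 (0.21). Adora2b had no row with 1 symbol, and Adora3 shares its row with Tmigd3, so that neither was analysed here.

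Of 6 other ectoenzymes that degrade nucleotides, 0 passed, and the one with the largest change was Enpp3 (log2 fold change 0.096). Of 8 genes of ATP release, 1 was higher, against 2.49% of all rows, and 1 was lower, against 2.66% of all rows. Gja1, which encodes the astrocytic gap junction protein connexin 43, had a log2 fold change of 0.11 (limma unadjusted p = 0.0412), and Lrrc8a, the essential subunit of the volume-regulated anion channel, one of -0.18 (limma unadjusted p = 0.0351). When each mouse in turn was left out, Gja1 passed only without control mouse 3, and Lrrc8a only without FSS mouse 1 or control mouse 1. Of 10 genes of adenosine transport and clearance, 6 lay above 0 and 4 below. At an unadjusted p under 0.05, 0 were lower, against 2.66% of all rows, and 2 were higher, against 2.49% of all rows. These were Slc29a4, a transporter of monoamines and adenosine (log2 fold change 0.19, limma unadjusted p = 0.0423), and Slc28a2, a sodium-coupled nucleoside transporter (log2 fold change 0.12, limma unadjusted p = 0.0391), whose level lay at percentile 5.04 of all rows. Among the fits with 1 mouse left out, Slc29a4 passed only without FSS mouse 3 or control mouse 1, and Slc28a2 only without FSS mouse 1 or control mouse 1. Adk, the kinase that clears adenosine inside cells, had a log2 fold change of 0.0035 (95% interval -0.11 to 0.11).

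Of 12 signalling partners of the receptors, 9 lay above 0 and 3 below, with a median log2 fold change of 0.059. At an unadjusted p under 0.05, 0 were higher, against 2.49% of all rows. Lower were 2, Il1b and Casp1, against 2.66% of all rows. Il1b encodes the cytokine interleukin 1 beta, whose release P2X7 is known to trigger. Its log2 level was 6.03, 6.09 and 6.04 in FSS mice, against 6.40, 6.39 and 6.22 in control mice. The FSS mice lay below every control mouse, with -0.28 between the means on the log2 scale (standard error 0.060, limma unadjusted p = 0.00235), and it passed without each mouse in turn. Casp1, the protease that processes the precursor of interleukin 1 beta, had log2 levels of 5.41, 5.26 and 5.23 in FSS mice, against 5.54, 6.10 and 5.61 in control mice. Control mouse 2 stood far above the rest, and the log2 fold change of -0.45 (standard error 0.15, limma unadjusted p = 0.0203) was -0.27 without it. Casp1 did not pass without FSS mouse 2 (-0.42) or FSS mouse 3 (-0.41). Both genes were dim, at percentiles 26.5 and 16.5 of all rows. Kcnk13, the potassium channel that acts with P2Y12 in microglia, had a log2 fold change of 0.13 (95% interval -0.066 to 0.33).

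**Figure D4:**
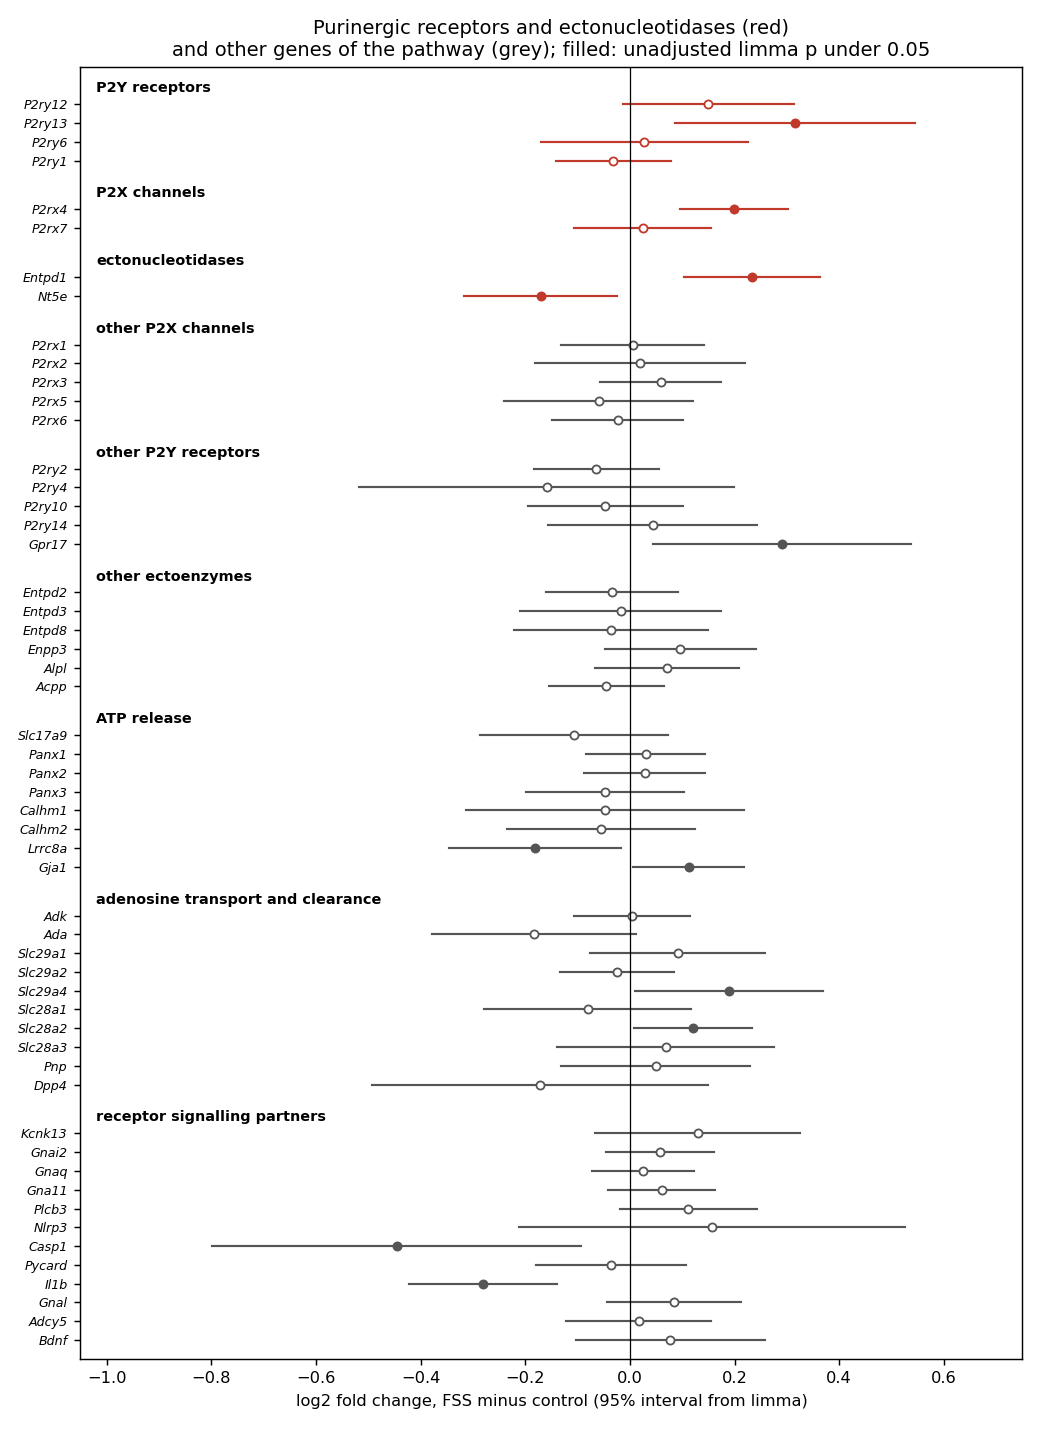
FSS minus control as a log2 fold change (x axis), with its 95% interval from limma, for the 8 genes (red) and the 46 measured other genes of the pathway (grey), grouped by role down the page and filled where the unadjusted p was under 0.05. Of the grey genes 4 are filled to the right of 0 and 3 to the left.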

How the data were processed

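The values deposited by the authors are on the log2 scale after RMA in the Affymetrix Expression Console, per the labels. The genome build was not given in the sources used here, so no coordinates are given, and RefSeq genes of GRCm38.p6 served for symbols (8 of 8 matched by gene ID) and for gene order. A further FSS mouse of the study was not analysed here. Of 28944 rows, 21789 had 1 symbol, 1621 several and 5534 were unnamed here. The largest difference between medians of arrays was 0.032. The groups were compared in limma 3.58.1 (R 4.3.3, lmFit, eBayes), with no covariate, Benjamini-Hochberg adjustment over all 21789 rows and an unadjusted p of 0.05 as the threshold, and the fit was tested on simulated data. The number of arrays limits the precision. The genes and lists were chosen with earlier results of these data known. The rule for named genes took all listed genes, the pathway genes that passed (or the one with the largest change), up to 3 markers a list and the 5 genes most like the gene with the smallest p. Genes next to the listed ones and the 3 pairs were chosen after the values were seen. The alternatives were the methods' test, other variance models, array weights, normalizations and rows, blocks for the replicate number and the array spread, and each array left out.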

Additional observations from a re-analysis of the deposited data

How the results depend on the processing

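P2rx4 and Entpd1 kept to the passing side of the threshold under all 17 alternatives, and P2ry13 did so under 16, the exception being the methods' t-test (an unadjusted value of 0.052, against 0.014 from limma). Nt5e gave 0.054 by that test, against 0.028. The methods' t-test called 1089 rows at an unadjusted p of 0.05 and 0 after Benjamini-Hochberg adjustment, and 3 higher and 5 lower at the methods' thresholds, against 1121, 0, 6 and 9 by limma. The study reported more genes at these thresholds in each direction, and its methods name no test for the arrays in particular. The number of listed genes higher in FSS mice was 3 to 4 without each mouse and 2 to 4 otherwise. The number lower was 0 to 1 without each mouse, 0 by the methods' t-test and 0 without dim rows, where Nt5e is not among the rows. Listed genes called at the methods' thresholds numbered 0 throughout. The log2 fold change of P2ry6 ranged from -0.066 (without FSS mouse 2) to 0.089 (without FSS mouse 3) and was -0.0066 with array weights, and that of P2rx7 ranged from -0.0091 (without FSS mouse 2) to 0.061 (without control mouse 1). The cause was not tested. Other pathway genes that were higher numbered 1 to 5 without each mouse, 2 by the methods' t-test and 2 with array weights. Those that were lower numbered 1 to 4 without each mouse, 1 by the methods' t-test and 1 without dim rows. Higher microglial markers numbered 4 to 11 without each mouse and 4 by the methods' t-test. In the labels, mice of the 2 groups share only their numbers. Same-numbered mice deviated with correlations of -0.048, 0.14 and 0.24, which cannot settle whether they were handled together. When the replicate number was added as a block, 4 listed genes were higher and 1 was lower, P2ry12 being the gene added, with a log2 fold change of 0.15. P2ry12 also passed with limma trend, without dim rows and without control mouse 1. Within the arrays of narrower and of wider spread, the log2 difference was 0.23 and 0.43 for P2ry13, 0.091 and 0.16 for P2ry12, 0.21 and -0.063 for P2ry6, -0.096 and 0.030 for P2ry1, 0.20 and 0.21 for P2rx4, 0.078 and 0.018 for P2rx7, 0.22 and 0.24 for Entpd1, and -0.15 and -0.20 for Nt5e, with 1 mouse in 1 of the groups each time. Signal over background was not analysed here, which limits what can be said of genes below the median level, among them Nt5e, Il1b, Casp1, Slc28a2, Gpr34 and F13a1.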
